A study of Sus scrofa with 12 samples.

Results

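Expression of 10 genes reported as targets of the microRNA miR-124 was examined in pig peripheral blood mononuclear cells (PBMC). The genes are VAMP3, PTPN12, IQGAP1, LAMC1, ROCK1, CAV1, ITGB1, JAG1, ACTL6A and CHSY1. They were taken by symbol from a fixed list, and all 10 were found among the 7480 gene symbols of the deposited table. The 12 libraries fall into 3 groups of 4. Control libraries were from non-treated cells, the Salmonella libraries from cells given Salmonella, and the sponge plus Salmonella libraries from cells given Salmonella together with a miR-124 sponge. The series text names the bacterium as Salmonella Typhi, and the sample labels name Salmonella only. All groups share 1 background, Duroc x Landrace x Yorkshire crossbred piglets of 4 weeks from a commercial farm, and cells were taken 12 h after treatment. The series text describes 20 piglets, 10 male and 10 female, and the labels do not tie any library to an animal. The p-values therefore measure the spread between these libraries, which may be technical. The labels list no group with the sponge alone and none with a control oligonucleotide, so the sponge was compared only in the presence of Salmonella. The word sponge stands in the descriptions of those libraries and in the series title but is missing from their sample titles, which give miR-124 and Salmonella.

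A microRNA is a short RNA that guides an Argonaute protein to messenger RNAs, usually by pairing of its seed with sites in their 3′ untranslated regions, which lowers their translation or stability. miR-124 is best known as an abundant microRNA of neurons, where it represses genes of non-neuronal cells, many of them for adhesion, cytoskeleton and chromatin, and it has also been studied as a restraint on monocyte and macrophage activation. A sponge is an RNA or oligonucleotide with sites that bind a microRNA and keep it from its targets, so messages of direct targets are generally higher when a sponge works. The levels of miR-124 itself were not analysed here. The 10 genes differ in role. VAMP3 acts in membrane fusion, PTPN12 in tyrosine dephosphorylation, IQGAP1 and ROCK1 in the actin cytoskeleton, ITGB1, LAMC1, CAV1 and CHSY1 in adhesion, matrix and the cell surface, JAG1 in Notch signalling and ACTL6A in chromatin remodelling.

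Values are on a log2 scale, as deposited by the authors, so a difference of 1 is a doubling if the values are proportional to abundance. The depth behind each value is unknown. Library medians ran from 5.11 to 5.31 log2 units, and correlations across genes were at least 0.953 between libraries of the same group. Salmonella replicate 1 had the lowest mean correlation with its own group, 0.962. Identical values for different genes were common in libraries with the sponge (65.1% to 71.4% of values, including 4 to 6 of the 10 genes) and rare elsewhere (at most 0.0802%, and 0 of the 10 genes). Treatment with the sponge and these repeated values cannot be told apart. As a guide to background, 186 symbols that blood cells should not express (olfactory and taste receptors, keratin-associated proteins, beta-defensins and similar families) had an average of 4.62 log2 units and a 95th percentile of 4.97. These are called silent genes here, and 53 of them occur among annotated pig gene symbols or synonyms. Values near this level may be background, and differences that start from it may understate the change. No measured marker of any cell type was at 0, but neither was any other gene, so this does not show that a marker was detected. T cell markers (11 of 18 measured, with CD3D and TCF7 at the silent level by their mean over the 12 libraries) averaged 8.97 to 9.29 in control, 7.52 to 8.18 in Salmonella and 8.51 to 9.17 in sponge plus Salmonella libraries. Monocyte markers (8 of 12 measured) averaged 7.93 to 8.60, 9.78 to 10.05 and 8.98 to 9.50. By their mean over the 12 libraries, all 6 measured fibroblast markers and 4 of 6 measured endothelial markers lay at the silent level, with PECAM1 and VWF above it. The fibroblast marker COL3A1 was above that level in every Salmonella library (5.08 to 5.83). Bulk values cannot tell fewer cells of a type from less RNA per cell.

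Among the 10 genes, Salmonella libraries differed from control libraries in 6 and sponge plus Salmonella libraries differed from Salmonella libraries in 7, in different directions. Against control, VAMP3, PTPN12, IQGAP1, CAV1 and CHSY1 rose with Salmonella and LAMC1 fell. Against all genes, of which 33.6% were called (15.7% higher and 17.9% lower, adjusted p below 0.05 by limma), this is 5 higher and 1 lower of 10. The median log2 difference was 0.79 over the 10 genes and -0.02 over all genes. The values of both groups did not overlap for 7 of the 10, 6 higher and 1 lower, against 35.6% of all genes (15.7% higher and 19.9% lower).

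Against Salmonella alone, sponge plus Salmonella libraries were higher for LAMC1, ROCK1, CAV1, ITGB1 and ACTL6A and lower for VAMP3 and JAG1. This is 5 higher and 2 lower, where 25.0% of all genes were called, 11.9% higher and 13.2% lower. The count was 4, with 2 higher and 2 lower, when only the 8 libraries of these groups were fitted and also when Salmonella replicate 3 was left out, because the calls of ROCK1, CAV1 and ITGB1 ended. The median log2 difference was 0.58 over the 10 genes and -0.04 over all genes. The groups did not overlap for 5 of the 10, 3 higher and 2 lower, against 23.8% of all genes (10.6% higher and 13.2% lower).

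Sponge plus Salmonella libraries were higher than control libraries for 8 of the 10 genes and lower for 0, with VAMP3 and JAG1 not called, where 40.9% of all genes were called (17.9% higher and 23.0% lower). The median log2 difference was 0.98, against -0.07 over all genes, and the groups did not overlap for 7 of the 10, all higher, against 39.7% of all genes (17.3% higher and 22.5% lower). The comparisons share libraries, so their counts are not independent of each other. The 10 genes were also chosen with results of these data known, and no test of the set was made.

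Centring each library on its median moved the median of all genes by 0.12 log2 units in sponge plus Salmonella against control and by 0.09 in Salmonella against control. It changed the split of all called genes from 1336 higher and 1721 lower to 1062 and 2569 in the former, and from 1175 and 1338 to 965 and 1778 in the latter. Under it the 10 genes gave 8 higher and 1 lower, with JAG1 then called lower, in sponge plus Salmonella against control, and 5 higher and 1 lower in Salmonella against control.

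**Figure D1:**
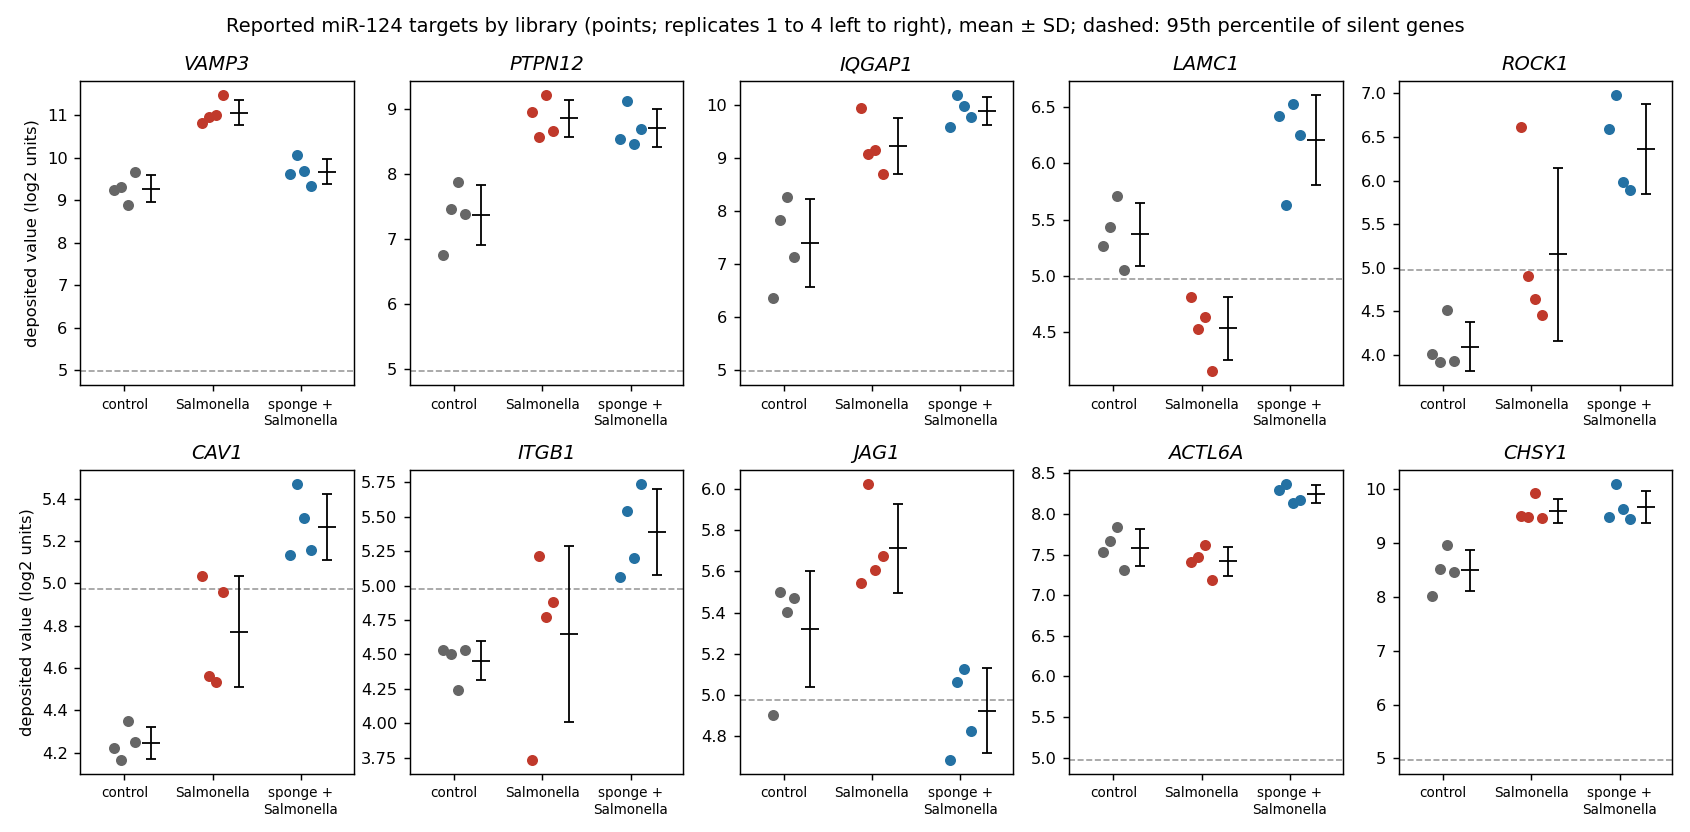
Deposited values in log2 units of the 10 genes in each library, with points for replicates 1 to 4 of the control, Salmonella and sponge plus Salmonella groups and bars for the group mean ± SD (n = 4). The dashed line at 4.97 is the 95th percentile of silent genes, and control values of ROCK1, CAV1 and ITGB1 lie below it.

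**Figure D2:**
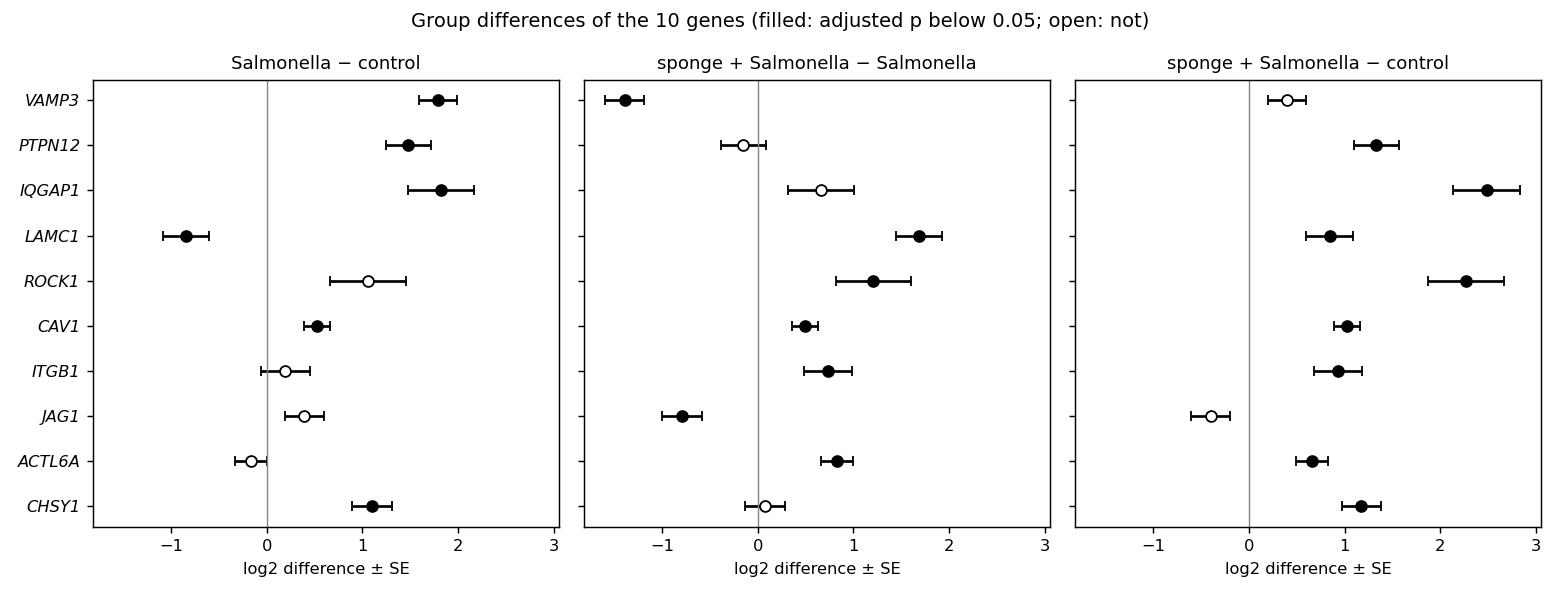
Differences between group means in log2 units ± SE for the 10 genes in each of the 3 comparisons, with filled points for an adjusted p below 0.05. VAMP3 and LAMC1 are filled with opposite signs in the Salmonella and the sponge comparison, and 8 of the 10 genes are filled and above 0 in sponge plus Salmonella against control.

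VAMP3 (chromosome 6, 68473921 to 68482438, Sscrofa11.1) encodes cellubrevin, a vesicle SNARE that drives fusion of recycling endosomes with the plasma membrane and takes part in phagocytosis and cytokine release by macrophages. Its values were 9.23, 9.32, 8.87 and 9.66 log2 units in control replicates 1 to 4, 10.81, 10.95, 10.998 and 11.47 with Salmonella, and 9.61, 10.05, 9.68 and 9.33 with sponge plus Salmonella. Every Salmonella library lay above every library of the other groups, and the control and sponge plus Salmonella ranges overlapped. VAMP3 rose with Salmonella by 1.79 ± 0.20 log2 units (SE, n = 4 per group; 3.46-fold, adjusted p = 1.59e-05), and 1.54% of all genes had a smaller p. With the sponge it was lower than with Salmonella alone by 2.62-fold (log2 difference -1.39 ± 0.20, adjusted p = 4.13e-04). The remaining difference from control was 0.40 ± 0.20 (adjusted p = 0.124), which passed the test only under quantile normalization (adjusted p = 0.0411). The VAMP3 calls against Salmonella and of Salmonella against control held in every alternative run.

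Of 15 measured SNARE genes and partners, from a list of 25, 9 rose and 1 fell with Salmonella (66.7% called, against 33.6% of all genes, of which 15.7% were higher), with a median log2 difference of 1.16. VAMP5, a relative first described in muscle, rose from 7.497 ± 0.497 (SD, n = 4) to 13.21 ± 0.46 and stood at 10.17 ± 1.33 with the sponge. STX11, a syntaxin needed for granule release by cytotoxic lymphocytes, rose by 4.11 ± 0.29 (SE) with Salmonella (adjusted p = 5.9e-07) and was lower by -2.05 ± 0.29 with the sponge than without it (adjusted p = 4.1e-04). STX7, a syntaxin of late endosomes, rose by 2.03 ± 0.31 (adjusted p = 1.8e-04), and its difference between the sponge and Salmonella groups was 0.53 ± 0.31 (adjusted p = 0.21). The sponge against Salmonella comparison called 2 of the 15 higher and 5 lower (46.7%, against 25.0% of all genes). VAMP2 and VAMP7, shown as relatives and chosen after their values were seen, did not share the pattern of VAMP3. VAMP2 fell with Salmonella (-1.03 ± 0.20, adjusted p = 0.0014) and was higher with the sponge than with Salmonella alone (0.87 ± 0.20, adjusted p = 0.0076), and VAMP7 was not called in either (-0.03 ± 0.16 and -0.17 ± 0.16).

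PTPN12 (chromosome 9, 102480914 to 102563969) encodes PTP-PEST, a cytosolic tyrosine phosphatase that acts on adhesion adaptors and tunes leukocyte migration. It stood at 6.75, 7.47, 7.88 and 7.39 log2 units in control replicates 1 to 4, at 8.95, 8.57, 9.21 and 8.67 with Salmonella and at 8.54, 9.12, 8.46 and 8.69 with sponge plus Salmonella. All 8 treated libraries lay above all controls, and the treated groups overlapped. The rise with Salmonella was 1.48 ± 0.24 (2.79-fold, adjusted p = 2.75e-04). With the sponge PTPN12 was 1.33 ± 0.24 above control (adjusted p = 6.4e-04) and differed from Salmonella alone by -0.15 ± 0.24 (adjusted p = 0.66). Only 4 of 15 listed partners were measured, and all 4 were called with Salmonella, 3 higher and 1 lower, where 33.6% of all genes were called. The ubiquitin ligase gene CBL rose by 1.86 ± 0.35 (adjusted p = 0.0011), the related PEST phosphatase gene PTPN18 fell by 1.55 ± 0.28 on the log2 scale (adjusted p = 6.7e-04), and PTK2, which encodes focal adhesion kinase, rose by 0.48 ± 0.10 (adjusted p = 0.0021) to a level near that of silent genes. The PTPN18 values with Salmonella (4.06 to 4.84) lay below the 95th percentile of silent genes, so the size of its fall is uncertain. PTK2 was the 1 of the 4 that differed between the sponge and Salmonella groups (-0.39 ± 0.10, adjusted p = 0.013). That is 25.0% called, the same as the 25.0% of all genes. The PTK2 call ended when only those groups were fitted (adjusted p = 0.0523).

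IQGAP1 (chromosome 7, 53020479 to 53129964) encodes a scaffold that links the small GTPases CDC42 and RAC1 to actin, and bacteria that enter cells by membrane ruffling, Salmonella among them, are known to engage it. Values were 6.36, 7.83, 8.27 and 7.13 log2 units in control replicates 1 to 4, 9.95, 9.07, 9.15 and 8.70 with Salmonella and 9.58, 10.19, 9.99 and 9.77 with sponge plus Salmonella. Every treated library exceeded every control, and Salmonella replicate 1 lay within the sponge range while the other Salmonella replicates lay below it. The rise with Salmonella was 1.82 ± 0.35 (3.53-fold, adjusted p = 0.0011). The difference of sponge plus Salmonella from control was 2.48 ± 0.35, or 5.59-fold (adjusted p = 1.48e-04), which is the largest of the 10 genes in that comparison. Between the sponge and Salmonella groups it was 0.66 ± 0.35 (adjusted p = 0.171), and it was not called in any alternative run (adjusted p 0.0632 to 0.364).

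IQGAP2, a relative abundant in liver and blood cells, fell with Salmonella from 9.48 ± 0.26 to 5.72 ± 0.32 (SD, n = 4; adjusted p = 5.8e-08) and stood at 8.47 ± 0.21 with the sponge (adjusted p = 1.6e-06 against Salmonella). IQGAP3, added as a relative after its values were seen, stayed between group means of 5.10 and 5.21 and was not called. Of 13 measured family members and partners, from a list of 20, 1 rose and 3 fell with Salmonella (30.8% called, against 33.6% of all genes), with a median log2 difference of 0.03. ACTB, encoding beta actin, was the one that rose (0.69 ± 0.15, adjusted p = 0.0031), and CDH1, encoding E-cadherin, fell (-0.49 ± 0.11, adjusted p = 0.0044) at levels in the silent range. The MAP kinase kinase gene MAP2K2 was among 3 of the 13 that were higher with the sponge than with Salmonella alone (1.43 ± 0.31, adjusted p = 0.0049), and 0 were lower (23.1% called, against 25.0% of all genes).

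ROCK1 (chromosome 6, 106163899 to 106314998) encodes a kinase that RHOA activates and that raises actomyosin contraction by phosphorylating myosin light chain phosphatase. It was listed at 4.01, 3.92, 4.52 and 3.93 log2 units in control replicates 1 to 4, at 6.62, 4.90, 4.64 and 4.46 with Salmonella and at 6.59, 6.98, 5.99 and 5.89 with sponge plus Salmonella. Control values were below the mean of silent genes, 3 of 4 Salmonella values were below their 95th percentile, and Salmonella replicate 1 lay within the sponge range. The sponge libraries did not overlap the controls, and the difference was 2.27 ± 0.39, or 4.81-fold (adjusted p = 5.84e-04). The difference of Salmonella from control was 1.06 ± 0.39 (adjusted p = 0.0509). Without Salmonella replicate 1 it was 0.57, the lowest of the alternative values, and it passed the test with a filter on the mean, with a replicate block, and without control replicate 3 or Salmonella replicate 3 or 4 (lowest adjusted p = 0.0268). Sponge plus Salmonella was 1.21 ± 0.39 above Salmonella alone (adjusted p = 0.0367). This call ended with no variance trend, in the fit of those groups alone, and without Salmonella replicate 2, 3 or 4 or sponge plus Salmonella replicate 1 or 2 (adjusted p up to 0.11). Without Salmonella replicate 1 the difference was 1.70 (adjusted p = 4.2e-04).

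ROCK2, the close relative with the same activator, had group means in the same order, from 5.21 ± 0.35 in control to 6.38 ± 0.41 with Salmonella and 6.98 ± 0.19 with the sponge (SD, n = 4). It rose with Salmonella by 1.17 ± 0.25 (SE; adjusted p = 0.0025) and differed between sponge and Salmonella by 0.60 ± 0.25 (adjusted p = 0.093).

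**Figure D3:**
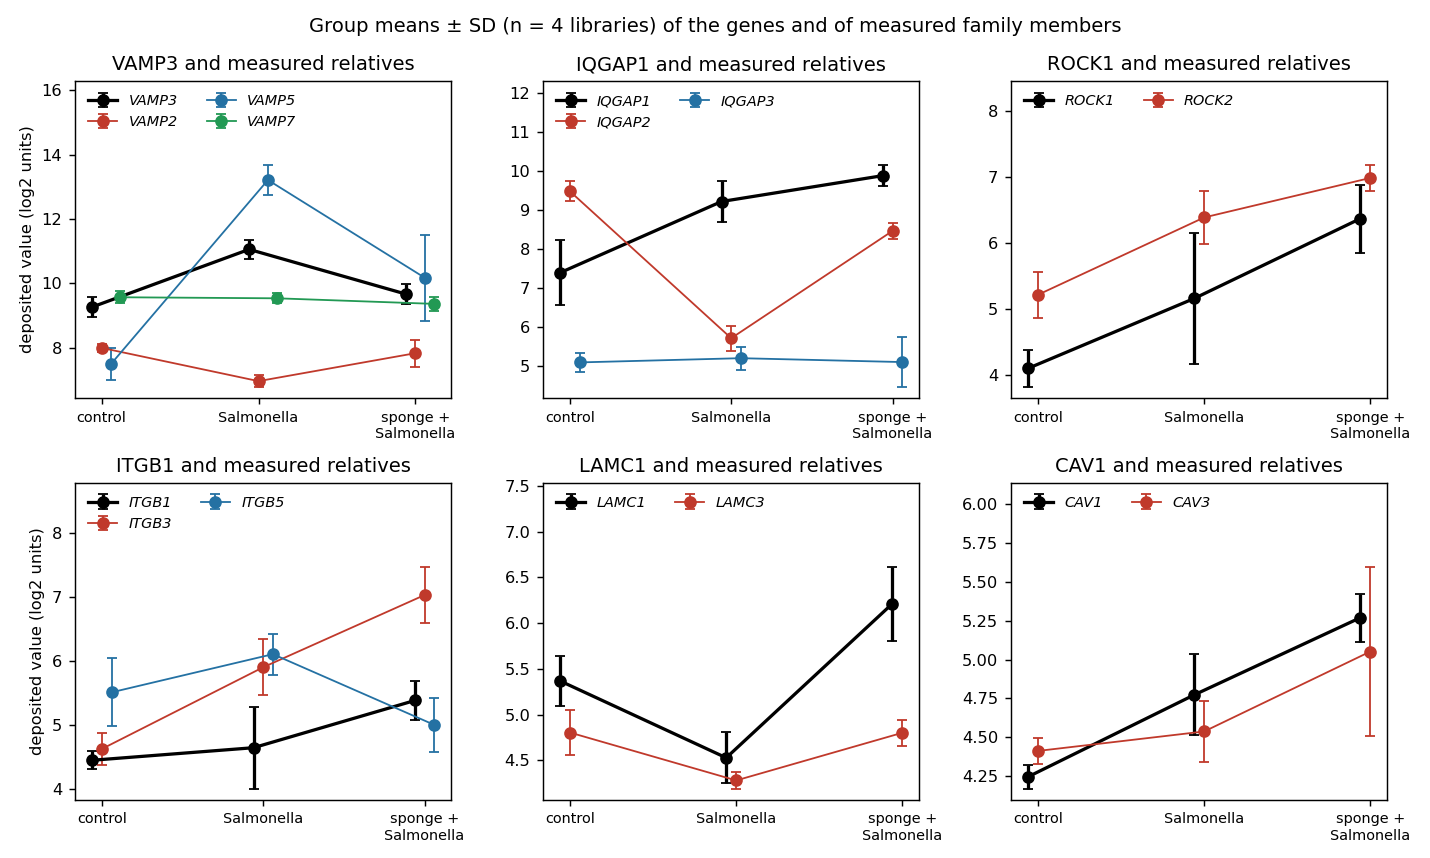
Group means ± SD in log2 units (n = 4 libraries) of VAMP3, IQGAP1, ROCK1, ITGB1, LAMC1 and CAV1 with measured family members in control, Salmonella and sponge plus Salmonella libraries, with lines joining the groups of 1 gene. VAMP5 follows the order of VAMP3 and ROCK2 that of ROCK1, while IQGAP2 falls to 5.72 with Salmonella where IQGAP1 rises to 9.22; heights of different genes are not compared because values per length are not given.

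ITGB1 (chromosome 10, 56078393 to 56130608) encodes integrin beta 1, which pairs with many alpha chains to bind fibronectin, collagen, laminin and VCAM1. Its values were 4.53, 4.51, 4.24 and 4.53 log2 units in control replicates 1 to 4, 3.73, 5.21, 4.77 and 4.88 with Salmonella and 5.07, 5.54, 5.20 and 5.74 with sponge plus Salmonella. Control values were all below the mean of silent genes. Salmonella replicate 1 was the lowest of the 12 libraries for ITGB1, although it was the highest Salmonella library for IQGAP1, ROCK1 and CAV1. The sponge libraries lay above all controls, by 0.93 ± 0.25 on average (1.91-fold, adjusted p = 0.00883). Salmonella differed from control by 0.20 ± 0.25 (adjusted p = 0.584), and by 0.50 without Salmonella replicate 1 (adjusted p = 0.0541). The sponge and Salmonella groups overlapped and differed by 0.74 ± 0.25 (adjusted p = 0.0441). This call ended in 4 of 5 alternative settings and without Salmonella replicate 1, 3 or 4 or sponge plus Salmonella replicate 2, 3 or 4 (highest adjusted p = 0.112), and the difference was 0.43 without Salmonella replicate 1.

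Of 10 measured integrins and adaptors, from a list of 29, 3 rose and 0 fell with Salmonella (30.0% called, against 33.6% of all genes), and the sponge comparison called 1 higher and 4 lower (50.0%, against 25.0%). ITGAL, the alpha chain of the leukocyte integrin LFA-1, rose with Salmonella (0.79 ± 0.14, adjusted p = 6.6e-04) and was lower with the sponge than with Salmonella alone (-0.70 ± 0.14, adjusted p = 0.0032). TLN1, encoding talin, which activates integrins from inside the cell and is itself a reported miR-124 target on the list used here, was also lower with the sponge (-0.73 ± 0.15, adjusted p = 0.003). ITGB3, the beta chain of the platelet fibrinogen receptor, was the member called higher in both, by 1.28 ± 0.28 with Salmonella (adjusted p = 0.0028) and by a further 1.13 ± 0.28 with the sponge (adjusted p = 0.01). Platelet markers, of which 8 of 11 were measured and ITGB3 is one, averaged 7.68 to 7.88 in control, 8.21 to 8.88 in Salmonella and 8.37 to 8.86 in sponge plus Salmonella libraries, and their part in the ITGB1 and ITGB3 values was not tested. ITGA10 rose with Salmonella by 0.61 ± 0.20 (adjusted p = 0.03), a call that ended under both other scalings and without control replicate 1 or 2 or Salmonella replicate 2, 3 or 4 (adjusted p up to 0.0925).

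LAMC1 (chromosome 9, 124283668 to 124405967) encodes the gamma 1 chain shared by most laminins, the networks of basement membranes to which integrins bind. Values were 5.27, 5.44, 5.71 and 5.05 log2 units in control replicates 1 to 4, 4.81, 4.52, 4.63 and 4.15 with Salmonella and 6.42, 5.63, 6.53 and 6.26 with sponge plus Salmonella. The Salmonella libraries lay below all others and below the 95th percentile of silent genes, so the size of the fall is uncertain. Sponge replicate 2 lay within the control range, and the other sponge replicates above it. LAMC1 fell with Salmonella by 0.84 ± 0.24 on the log2 scale (adjusted p = 0.015). With the sponge it was 3.21-fold higher than with Salmonella alone (1.68 ± 0.24, adjusted p = 4.06e-04), and 1.12% of all genes had a smaller p in that comparison. It was also above control (0.84 ± 0.24, adjusted p = 0.0125). All 3 calls held in every alternative run.

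Of 4 measured basement membrane genes, from a list of 17, 0 rose and 2 fell with Salmonella (50.0% called, against 33.6% of all genes). LAMC3, the gamma chain of less common laminins, moved in the directions of LAMC1 in these comparisons, within the silent range, with -0.52 ± 0.12 for Salmonella (adjusted p = 0.0038) and 0.52 ± 0.12 for the sponge against Salmonella (adjusted p = 0.0067), but did not stand above control with the sponge (-0.0024 ± 0.12, adjusted p = 0.99). LAMA1, an alpha chain gene, fell with Salmonella (-0.81 ± 0.25, adjusted p = 0.023), a call that ended in the fit of those groups alone and without control replicate 1 or 4 or Salmonella replicate 1 or 2 (adjusted p up to 0.0748), and it stood at 4.93 ± 0.09 (SD, n = 4) with the sponge. T cell markers were lower with Salmonella for 10 of 11, against 17.9% of all genes. They were higher with the sponge than with Salmonella alone for 11 of 11, against 11.9% of all genes. These are the directions of LAMC1 in these comparisons. Against control with the sponge, 2 of the 11 were higher and 5 lower (median log2 difference -0.50), where LAMC1 was higher. Of all genes, 17.9% were higher and 23.0% lower in that comparison. Of 5 measured B cell markers, 4 were lower and 1 higher with Salmonella. Between the sponge and Salmonella groups 4 of them were higher and 1 lower, and against control with the sponge 0 were higher and 2 lower. The part of these cells in the LAMC1 values was not tested.

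CAV1 (chromosome 18, 29648120 to 29682451) encodes caveolin-1, the main coat protein of caveolae, which is plentiful in endothelial cells and fibroblasts and scarce in most lymphocytes. It was listed at 4.22, 4.17, 4.35 and 4.25 log2 units in control replicates 1 to 4, at 5.03, 4.56, 4.53 and 4.96 with Salmonella and at 5.14, 5.47, 5.31 and 5.16 with sponge plus Salmonella. The 3 groups did not overlap, with control lowest and the sponge group highest, and all control values were below the mean of silent genes. CAV1 rose with Salmonella by 0.53 ± 0.14 (adjusted p = 0.00794) and was a further 0.50 ± 0.14 higher with the sponge (adjusted p = 0.0164). The latter call ended in the fit of those groups alone (adjusted p = 0.0731) and without Salmonella replicate 2 or 3 (adjusted p = 0.0561 and 0.0563). The sponge group was 1.02 ± 0.14 above control (2.03-fold, adjusted p = 1.11e-04). Fibroblast markers averaged 4.50 to 4.62 in control, 4.43 to 4.97 in Salmonella and 4.45 to 4.73 in sponge plus Salmonella libraries, and endothelial markers 5.84 to 5.90, 5.47 to 5.98 and 5.64 to 6.21. Of all genes, 33.6% were called in Salmonella against control, 25.0% in sponge plus Salmonella against Salmonella and 40.9% in sponge plus Salmonella against control. The endothelial list had 0 of 6 called in any of these. The fibroblast list had 1 of 6 higher and 1 lower in Salmonella against control (33.3% called). It had the same split in sponge plus Salmonella against Salmonella (33.3%), and 0 called in sponge plus Salmonella against control. COL3A1, a collagen gene named after its values were seen, was the one that rose with Salmonella, as CAV1 did (0.64 ± 0.20, adjusted p = 0.021), and it was lower with the sponge than with Salmonella alone (-0.68 ± 0.20, adjusted p = 0.022), where CAV1 was higher. The part of these cells in the CAV1 values was not tested.

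Of 4 measured caveola genes, from a list of 16, 0 were called with Salmonella, against 33.6% of all genes, and 2 were lower with the sponge (50.0% called, against 25.0%). EHD4 and EHD1, which encode membrane-remodelling ATPases of endosomes, were lower than with Salmonella alone by -0.63 ± 0.17 (adjusted p = 0.017) and -0.47 ± 0.14 (adjusted p = 0.025). The EHD4 call ended without sponge plus Salmonella replicate 4 (adjusted p = 0.0518). The EHD1 call ended without Salmonella replicate 2 or 3, in the fit of those groups alone, and under quantile normalization (adjusted p = 0.441). CAV3, the muscle caveolin added as a relative after its values were seen, was not called in either comparison with the Salmonella group, and it was higher in sponge plus Salmonella than in control, as CAV1 was (0.64 ± 0.20, adjusted p = 0.021). Its means were in the silent range in control (4.41 ± 0.08, SD, n = 4) and with Salmonella (4.54 ± 0.20), and 5.05 ± 0.54 with the sponge.

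CHSY1 (chromosome 1, 139730703 to 139804458) encodes a chondroitin sulfate synthase, which extends the sugar chains of proteoglycans in the Golgi. It stood at 8.02, 8.51, 8.97 and 8.46 log2 units in control replicates 1 to 4, at 9.49, 9.48, 9.93 and 9.46 with Salmonella and at 9.49, 10.10, 9.64 and 9.44 with sponge plus Salmonella. As for PTPN12, every treated library lay above every control and the treated groups overlapped. The rise was 1.10 ± 0.21 with Salmonella (2.15-fold, adjusted p = 0.00103) and 1.18 ± 0.21 with the sponge and Salmonella (2.26-fold, adjusted p = 6.29e-04). The difference between the treated groups was 0.07 ± 0.21 (adjusted p = 0.816). Of 14 measured genes of chondroitin sulfate synthesis, from a list of 24, 0 rose and 4 fell with Salmonella (28.6% called, against 33.6% of all genes, of which 17.9% were lower), with a median log2 difference of -0.41. Those that fell include genes of the linker by which the chain is attached, XYLT2 (-0.87 ± 0.17, adjusted p = 0.0014), B3GAT3 (-1.02 ± 0.22, adjusted p = 0.0029) and B3GALT6 (-0.75 ± 0.23, adjusted p = 0.02). The B3GALT6 call ended without control replicate 1 or 4 or Salmonella replicate 3 (adjusted p up to 0.0726). XYLT2 was the 1 gene of the 14 called between the sponge and Salmonella groups (0.50 ± 0.17, adjusted p = 0.045), which is 7.14% against 25.0% of all genes. That call ended in 3 of 6 alternative settings and without any 1 of 6 of the 8 libraries, sponge plus Salmonella replicates 1 and 2 excepted (adjusted p up to 0.126).

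JAG1 (chromosome 17, 19591248 to 19629659) encodes Jagged1, a membrane ligand of Notch receptors that monocytes and dendritic cells can present to T cells. Values were 4.90, 5.50, 5.40 and 5.47 log2 units in control replicates 1 to 4, 5.54, 6.03, 5.60 and 5.68 with Salmonella and 4.68, 5.06, 5.12 and 4.82 with sponge plus Salmonella. The Salmonella libraries lay above all others, and control replicate 1 lay within the sponge range. JAG1 was 1.73-fold lower with the sponge than with Salmonella alone (-0.79 ± 0.20, adjusted p = 0.0125), a call that held in every alternative run. Salmonella differed from control by 0.39 ± 0.20 (adjusted p = 0.152) and the sponge group from control by -0.40 ± 0.20 (adjusted p = 0.133). The latter passed the test after median centring (-0.52 ± 0.20, adjusted p = 0.0475). Of the 10 genes, JAG1 and VAMP3 were those called lower with the sponge than with Salmonella alone.

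Of 18 measured Notch pathway genes, from a list of 35, 6 rose and 1 fell with Salmonella (38.9% called, against 33.6% of all genes), and the sponge comparison called 2 higher and 4 lower (33.3%, against 25.0%). NUMB, encoding an inhibitor of Notch, rose by 0.996 ± 0.166 (adjusted p = 4e-04). PSENEN, encoding a subunit of the gamma-secretase that cuts Notch, rose by 1.31 ± 0.20 (adjusted p = 2.2e-04). MFNG, a fucose-modifying enzyme that tunes the response to Jagged and Delta ligands, fell by 1.501 ± 0.140 on the log2 scale (adjusted p = 3.3e-06) and was higher with the sponge than with Salmonella alone (0.56 ± 0.14, adjusted p = 0.011). ADAM10, the protease that makes the activating cut, was listed in the silent range in control (3.95 ± 0.11, SD) and with Salmonella (4.45 ± 0.62) and at 6.21 ± 0.29 with the sponge (adjusted p = 3.5e-04 against Salmonella, n = 4 per group).

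ACTL6A (chromosome 13, 117598415 to 117627311) encodes BAF53a, an actin-like subunit of the BAF, INO80 and TIP60 chromatin complexes that is replaced by its relative ACTL6B when neurons mature, an exchange in which miR-124 takes part. It stood at 7.53, 7.67, 7.84 and 7.31 log2 units in control replicates 1 to 4, at 7.41, 7.47, 7.61 and 7.19 with Salmonella and at 8.29, 8.37, 8.14 and 8.17 with sponge plus Salmonella. The sponge libraries lay above all 8 others, and control and Salmonella overlapped. ACTL6A was 1.77-fold higher with the sponge than with Salmonella alone (0.82 ± 0.17, adjusted p = 0.00334) and 1.58-fold higher than control (0.66 ± 0.17, adjusted p = 0.0065). Salmonella differed from control by -0.17 ± 0.17 (adjusted p = 0.475). Both calls of ACTL6A held in every alternative run. With LAMC1, CAV1, ROCK1 and ITGB1 it is 1 of the 5 genes called higher with the sponge, and of those 5 it was the 1 above the 95th percentile of silent genes in all 12 libraries.

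Of 19 measured subunits of the complexes, from a list of 34, 2 rose and 3 fell with Salmonella (26.3% called, against 33.6% of all genes). With the sponge 6 were higher and 1 lower than with Salmonella alone (36.8%, against 25.0%), with a median log2 difference of 0.14. SMARCD1, a BAF subunit, fell with Salmonella (-0.73 ± 0.14, adjusted p = 0.0014) and stood again at 8.99 ± 0.16 with the sponge, where control was 9.01 ± 0.15 (SD, n = 4). EP400, the ATPase of the TIP60 complex, fell by 1.10 ± 0.17 on the log2 scale (SE; adjusted p = 2e-04). SMARCE1, a BAF subunit that binds DNA, fell by 1.54 ± 0.32 (adjusted p = 0.0021). PBRM1, a bromodomain subunit of the PBAF form, was higher with the sponge (1.09 ± 0.21, adjusted p = 0.0021) from a level in the silent range.

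**Figure D4:**
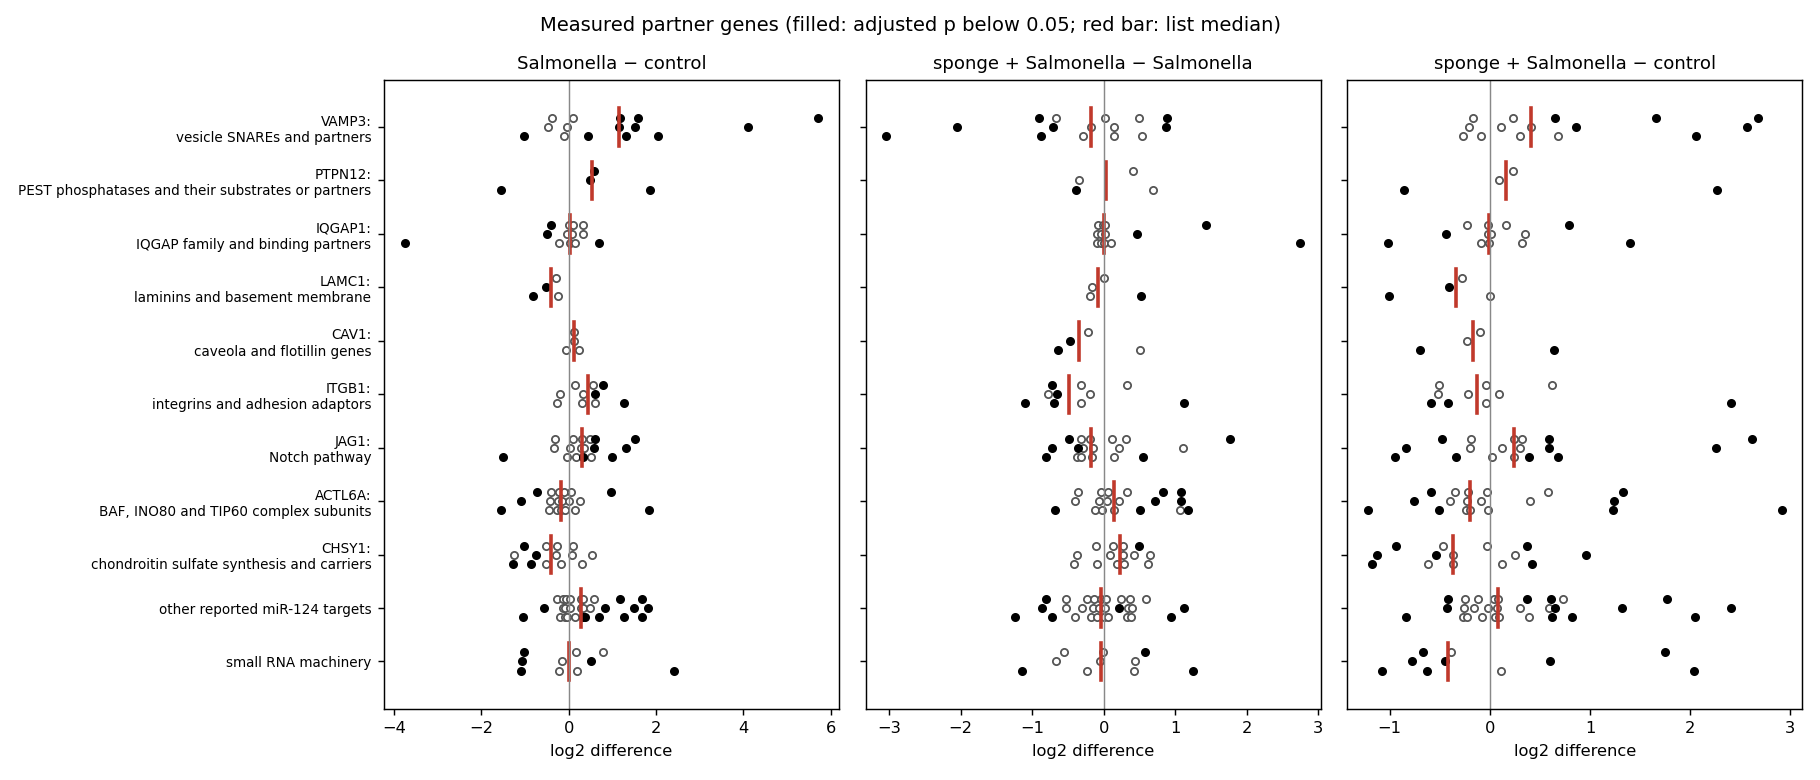
Log2 differences of the measured genes of the partner lists described in the text in the 3 comparisons, with 1 point per gene, filled for an adjusted p below 0.05, and a red bar at the list median; points are spread vertically for sight only and the horizontal axes differ between panels. The SNARE list has its median at 1.16 in Salmonella against control, and the medians of the 29 other reported miR-124 targets are 0.27, -0.04 and 0.08 from left to right.

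A longer list of 64 other reported miR-124 targets had 29 measured genes. With Salmonella 10 rose and 2 fell (41.4% called, where 33.6% of all genes were called, 15.7% higher and 17.9% lower), with a median log2 difference of 0.27 against -0.02 over all genes. Between the sponge and Salmonella groups 3 were higher and 4 lower (24.1%, where 25.0% of all genes were called, 11.9% higher and 13.2% lower), with a median of -0.04 in both. Against control the sponge group had 9 higher and 3 lower (41.4%, where 40.9% of all genes were called, 17.9% higher and 23.0% lower), with a median of 0.08 against -0.07 over all genes. The list includes ROCK2, ITGB3 and TLN1, described above. STAT3, the signal transducer of interleukin-6 family cytokines, rose with Salmonella (1.82 ± 0.25, adjusted p = 7.2e-05) and was lower with the sponge than with Salmonella alone (-1.24 ± 0.25, adjusted p = 0.003), the order of VAMP3. BCL6, a transcriptional repressor, rose with Salmonella by 1.68 ± 0.28 (adjusted p = 3.8e-04). It was lower with the sponge than with Salmonella alone (-0.86 ± 0.28, adjusted p = 0.035), although the values of these groups overlapped. NR3C2, the mineralocorticoid receptor gene, fell with Salmonella by 1.06 ± 0.22 (adjusted p = 0.002), and stood at 7.46 ± 0.06 with the sponge against 7.58 ± 0.15 in control (SD, n = 4).

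Of 10 measured genes for making or acting with microRNAs, from a list of 29, 2 rose and 3 fell with Salmonella (50.0% called, against 33.6% of all genes), and the sponge comparison called 2 higher and 1 lower (30.0%, against 25.0%). DGCR8, the RNA-binding partner of Drosha in the nucleus, was lower with the sponge than with Salmonella alone (-1.14 ± 0.19, adjusted p = 8.6e-04). CNOT1, the scaffold of the deadenylase that silencing complexes recruit, fell with Salmonella (-1.03 ± 0.15, adjusted p = 1.4e-04) and was higher with the sponge than with Salmonella alone (0.58 ± 0.15, adjusted p = 0.013). RAN, the GTPase of nuclear export, fell by 1.07 ± 0.21 on the log2 scale (adjusted p = 0.0014). XRN1, an exonuclease that clears decapped messages, rose by 2.41 ± 0.31 (adjusted p = 4.9e-05).

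The genes with the pattern most like each of the 10 were sought by Pearson correlation of log2 values over the 12 libraries, which share 3 treatment groups and so are not independent points. VAMP3 was most like OASL (r = 0.982), an interferon-induced gene, and TLR4 (0.981), the endotoxin receptor gene. IQGAP1 was most like GOPC (0.993) and SMNDC1 (0.988), and ROCK1 most like HNRNPH2 and TMEM128 (both 0.99). PTPN12 and CHSY1 were each other's nearest gene (0.974), followed by S100A12 (0.969) for CHSY1. This was the 1 pair among the 10 genes in which one was among the 2 nearest genes of the other. CAV1 was nearest to HAL (0.976) and CAPZA1 (0.94), LAMC1 to DEF6 (0.958) and FAM193A (0.954), and ACTL6A to BACH2 and IARS2 (both 0.942). ITGB1 and JAG1 had few close neighbours, with SORCS1 (0.901) and PTK7 (0.897) nearest to ITGB1 and KIAA1958 (0.915) and DLGAP4 (0.894) nearest to JAG1. A correlation of at least 0.9 was reached by 1 gene for each of these, against 246 for IQGAP1, 166 for ROCK1 and 147 for VAMP3. Monocyte markers were called higher with Salmonella for 6 of 8, against 15.7% of all genes. They were called lower with the sponge than with Salmonella alone for 5 of 8, against 13.2% of all genes. These are the directions of VAMP3 in those comparisons. CD163 and VCAN instead had higher means with the sponge than with Salmonella alone, although not called (adjusted p = 0.51 and 0.20). Against control with the sponge, 5 of the 8 were higher and 0 lower, where VAMP3 was not called (adjusted p = 0.124). Of all genes, 17.9% were higher and 23.0% lower in that comparison. The part of monocytes in the VAMP3 values was not tested.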

How the data were processed

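RNA of 12 pig PBMC libraries was extracted with a PAXgene kit and made into TruSeq libraries, per the labels' protocols. Bowtie, R 3.4.2 and the build Sscrofa11.1 are named in the submitters' processing notes. How reads were counted, normalized and filtered is not stated by the labels or the table. The authors deposited 1 table of log2 values (the base is not stated and was taken as 2) for 7480 symbols, from 2.13 to 15.01, with 0 values of 0. No counts were used, so depth and counting error are unknown. Group means of all 12 libraries were estimated in 1 model with limma 3.58.1 (R 4.3.3) and a variance trend. P-values were adjusted over all 7480 genes by the Benjamini-Hochberg method, with a threshold of 0.05. The fit was tested on simulated data. Coordinates are from RefSeq Sscrofa11.1, in which all 10 genes matched by symbol. The 10 genes, the partner lists and the markers were chosen with earlier results of these data known. Named partners were the called genes with the 3 smallest p in Salmonella against control and the 2 smallest in sponge plus Salmonella against Salmonella in each list, with exceptions stated, and for likeness the 2 genes with the highest correlation. Alternatives were no variance trend, only the groups compared, median centring, quantile normalization, a mean of at least 5, a replicate block and leaving out each library. Some results that these rules select are not reported here.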

Additional observations from a re-analysis of the deposited data

Results flagged for a closer look

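Of 30 sets of 4 values (10 genes in 3 groups), 4 held a library far from the other 3, judged by its gap to the nearest library as a share of the whole range, where chance gives about 1 in 20. In control libraries ROCK1 was 4.52 in replicate 3 against 3.92 to 4.01 in the others (gap share 0.845). ITGB1 was 4.24 in control replicate 3 against 4.51 to 4.53 (0.903). JAG1 was 4.90 in control replicate 1 against 5.40 to 5.50 (0.844). In Salmonella libraries CHSY1 was 9.93 in replicate 3 against 9.46 to 9.49 (0.933). The ROCK1 and ITGB1 values lie below the mean of silent genes.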

How the results depend on the processing

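The counts of all genes called stayed within 1.5 times in all 18 other settings and all 24 fits without 1 library. With the mean filter 4144 of 7480 genes were tested, so those counts are over a smaller total. They were 2087 in Salmonella against control, 1359 in sponge plus Salmonella against Salmonella and 2103 in sponge plus Salmonella against control. Of the counts among the 10 genes, sponge plus Salmonella against Salmonella moved from 7 to 4 when only the groups compared were fitted, and ran from 4 to 6 when 1 library was left out (4 without Salmonella replicate 3). Log2 differences of the 10 genes kept direction and call in 163 of 174 values under other settings and 223 of 240 without 1 library. The 1 that changed sign was CHSY1 in sponge plus Salmonella against Salmonella, never called, from 0.07 to -0.0717 without sponge plus Salmonella replicate 2 (range without 1 library -0.0717 to 0.19). The cause was not tested. A call was lost in 7 and gained in 4 of the 174, and lost in 13 and gained in 3 of the 240. All losses were in sponge plus Salmonella against Salmonella, for ROCK1, CAV1 and ITGB1. The mean filter removed CAV1 and ITGB1. A block for the replicate number gave 7, 7 and 8 of the 10 genes called in Salmonella against control, sponge plus Salmonella against Salmonella and sponge plus Salmonella against control, where the fits without it gave 6, 7 and 8. The gain was ROCK1 (adjusted p = 0.0414). Over all genes the block gave 2371, 1706 and 2907 calls. Same-numbered libraries had correlations of deviations from -0.36 to 0.38, and 2 of 12 were closest to their own number. With 4 libraries per group this cannot decide whether same-numbered libraries share an animal, which the labels do not state. The depth is unknown, and the silent level limits ROCK1, CAV1, ITGB1 and LAMC1.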

Other observations

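Among the partner lists, some genes were far above control in the sponge plus Salmonella libraries although the text has not described them. They were chosen after their values were seen. SS18, a BAF subunit, was 2.92 log2 units above control (adjusted p = 2.9e-04), APH1A, a gamma-secretase subunit, 2.62 (adjusted p = 4.1e-04) and PRKRA, a partner of Dicer, 2.04 (adjusted p = 0.0020). APH1A lay below the mean of silent genes in every control library (3.90 to 4.26), so the size of its difference is uncertain. For IL6R, the interleukin-6 receptor gene on the list of other reported targets, the difference was 2.05 (adjusted p = 5.9e-04). Salmonella libraries were above control for SS18 by 1.85, APH1A by 1.51 and IL6R by 1.68 (adjusted p = 0.006, 0.014 and 0.0023). Between the sponge and Salmonella groups these genes differed by 1.07, 1.11 and 0.37 and were not called (adjusted p = 0.095, 0.072 and 0.46). PRKRA was not called with Salmonella (0.78, adjusted p = 0.17). It was higher with the sponge than with Salmonella alone (1.25, adjusted p = 0.045).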
